A study of Mus musculus with 6 samples.

Results

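The 45 genes described here encode the machinery of G2 and mitosis, from the cyclins that start division to the proteins that cut the daughter cells apart. They were chosen by symbol, as a list of G2 and mitosis genes drawn up with earlier results of these data known, and all 45 were among the 18465 genes of the deposited expression table. RNA came from SLAM-LSK cells of mouse bone marrow, a fraction rich in haematopoietic stem cells, sorted as CD150+ CD48- cells among those without lineage markers but with Sca-1 and c-Kit. The groups were WT C57BL/6 mice and C57BL/6 mice heterozygous for the R751W allele of Mecom (MecomWT:R751W), with 3 libraries each, labelled as biological replicates. The labels give no age and do not say that each library came from 1 mouse, so p-values measure only the spread between these samples.

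A dividing cell builds up cyclins A and B in G2. These activate the kinase CDK1, which drives entry into mitosis, while Aurora and Polo kinases set up the spindle. Kinetochores then tie chromosomes to spindle microtubules, and the checkpoint holds the cell until every chromosome is attached. The anaphase-promoting complex ends mitosis by marking cyclin B and securin for destruction. Many of these genes are transcribed together late in the cycle, through the CHR element of their promoters, which binds the MuvB complex with B-MYB and FOXM1, and through CCAAT boxes, which bind NF-Y. Long-term haematopoietic stem cells of adult mice are mostly quiescent. Which cells of the sorted fraction held such transcripts was not measured here.

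Levels are in TPM, a relative abundance of transcripts, which correct reads for gene length and sum to 1000000 per library. Whole reads implied by the TPM summed to between 10427533 and 12378149 per library, and the 45 genes had from 700 to 90921 implied reads over the 6 libraries, with no fewer than 88 in any library. Protein-coding genes took 25.9% and 26.0% of TPM in WT replicate 2 and MecomWT:R751W replicate 2, against 28.9% to 30.1% in the other 4 libraries. These 2 libraries were the lowest of their group in 64.1% and 64.8% of all genes tested. Among markers of the sort, Kit was at 137 to 198 TPM and Ly6a (Sca-1) at 8.64 to 13.2. Slamf1 (CD150) was at 10.1, 9.50 and 12.8 TPM in WT and 16.5, 12.2 and 14.7 TPM in MecomWT:R751W, a log2 fold change of 0.39 (SE 0.17). Cd48, which the gate selects against, was at 2.18, 1.85 and 1.02 TPM in WT and 3.24, 2.27 and 4.10 TPM in MecomWT:R751W. The groups lay apart for Cd48, at a log2 fold change of 0.65 (SE 0.23, adjusted p = 0.674 by limma), and the part of this in the results was not tested. Mecom, which encodes a zinc finger transcription factor, stood at 42.9, 34.9 and 36.9 TPM (WT) and 50.9, 39.9 and 44.0 TPM (MecomWT:R751W). A gene total cannot separate the alleles, so this checks no label.

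All 45 genes had a higher mean in MecomWT:R751W than in WT cells, by small amounts. The median log2 fold change was 0.22, with a range from 0.02 for Cenpa to 0.51 for Kif2c, beside a median of -0.0037 over the 16655 genes tested, of which 49% lay above 0. No gene of the 45 passed an adjusted p of 0.05 with limma, where 0% of all genes were called higher and 0% lower. At an unadjusted p under 0.05 there were 12 of the 45, all higher, where 2.74% of all genes were called higher and 3.23% lower. With 1 library left out, this number and the share of all genes called higher both moved. They were 20 and 4.22% without MecomWT:R751W replicate 2, 6 and 1.8% without WT replicate 2, and 18 and 3.23% without WT replicate 3. The number was 7 without each of the other 3, where the shares were 2.95% (WT replicate 1 left out), 2.17% and 1.88% (MecomWT:R751W replicates 1 and 3). Plk1, Aurka and Cenpa lay below 0 in some of these settings. The smallest adjusted p among the 45 was 0.544, for Ube2c. Log2 fold changes are on the log2(TPM + 1) scale, and the upper 95% limits reached at most 0.85, below a value of 1 for each of the 45.

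In summed level, the 45 genes took 1279, 1296 and 1534 TPM in WT replicates 1, 2 and 3. The sums were 1735, 1492 and 1641 TPM in MecomWT:R751W replicates 1, 2 and 3, a mean 18.5% higher. MecomWT:R751W replicate 2 lay below WT replicate 3, so the genotypes overlapped. As a share of the TPM of protein-coding genes, the sums were 0.425%, 0.501% and 0.531% in WT and 0.584%, 0.573% and 0.568% in MecomWT:R751W. On this scale the lowest MecomWT:R751W library stood above the highest WT library. In bulk RNA, a larger number of dividing cells and more RNA per dividing cell cannot be told apart.

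Gene by gene, every MecomWT:R751W library exceeded every WT library for 13 of the 45, where this held for 4.5% of all genes tested. None of the 45 lay wholly below, as 4.7% of all genes did. Another 26 missed this only because WT replicate 3 reached into the range of MecomWT:R751W. WT replicate 3 was the highest WT library for 41 of the 45, against 38.2% of all genes. MecomWT:R751W replicate 2 was the lowest of its group for 38 of the 45, against 64.8% of all genes. After the TPM were rescaled to the total of the protein-coding genes, the groups lay apart for 25 of the 45, where 7.53% of genes lay apart with MecomWT:R751W higher and 8.63% with it lower. By role, these 25 were 3 of 12 genes of cyclin and kinase control, 4 of 11 of the kinetochore and checkpoint, 10 of 11 spindle proteins, 2 of 5 of exit and cytokinesis, and all 6 of chromosome structure.

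**Figure D1:**
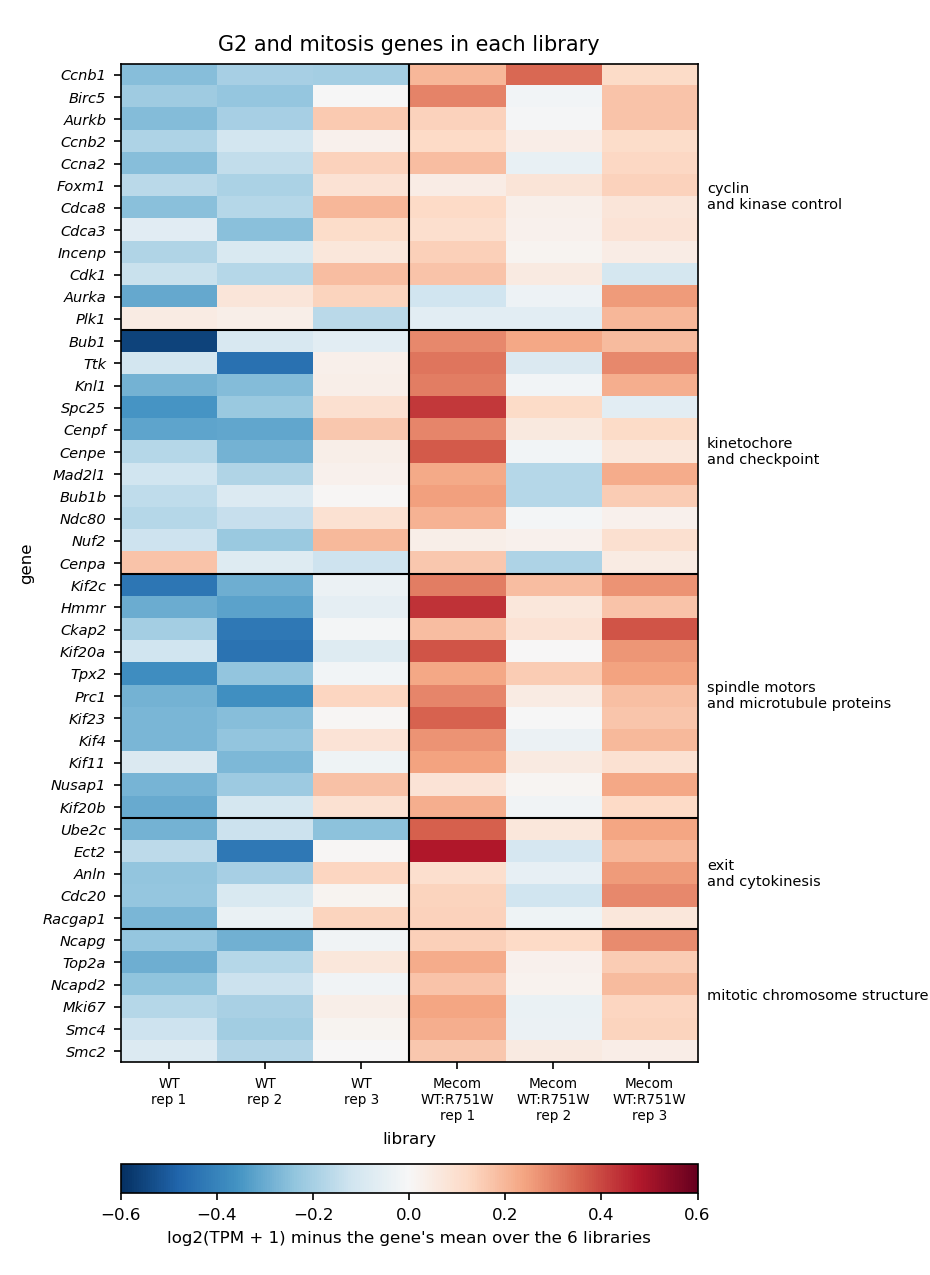
Each row is 1 of the 45 genes and each column 1 library, coloured by log2(TPM + 1) minus the gene's mean over the 6 libraries, with genes sorted by log2 fold change within 5 role groups. WT replicates 1 and 2 are mostly blue, MecomWT:R751W replicates 1 and 3 mostly red, and WT replicate 3 and MecomWT:R751W replicate 2 lie near the mean for most genes.

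The promoters of these genes shared letters that the list did not use. RefSeq windows from 250 bases before to 50 bases after an annotated start (GRCm38.p6, the same assembly as mm10) matched 38 of the 45 genes, with 40 windows. A CHR, searched as TTTGAA or TTCGAA on both strands, was present in 34 of the 40 windows, or 85%, against 19.2% of all 32851 windows. CCAAT on either strand was present in 31 windows, or 77.5%, against 37.4% of all. Both were present in 72.5%, against 7.52% of all. E2F letters, searched as TTTCCCGC or TTTGGCGC or TTTCGCGC or TTTGCCGC on both strands, were found in 7.5%, against 2.26% of all. Promoters of the other G2 and mitosis genes lay between, with a CHR in 41.1% and CCAAT in 59.8% of 112 windows. In promoters of S phase and DNA replication genes, a CHR was in 17.5% of 40 windows and E2F letters in 35%. CCAAT was in 60% of these windows, close to its share in the other G2 and mitosis genes. Of 46 CHR places in the 40 windows, 32 started within 50 bases of the annotated start, and 1 overlapped a CCAAT. The 71 CCAAT places lay mostly upstream, 69 of them before the start, with a median of -71 bases. A match is letters only, and binding was not measured. The 32 genes with a CHR had a median log2 fold change of 0.26 and the 6 without one a median of 0.25.

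From each role group, the promoter of the gene with the smallest p that holds a CHR is given, whether or not it has this layout. Each runs 5′ to 3′ on the gene's strand, from 170 bases before to 30 bases after the start, with the CHR (TTTGAA or TTCGAA, or TTCAAA in reverse) and CCAAT letters in capitals. A CCAAT on the other strand reads ATTGG. Ccnb2, at chr9:70421525-70421724 on the minus strand, holds CCAAT at 3 places, a CHR just after the start and another far upstream.
Ccnb2: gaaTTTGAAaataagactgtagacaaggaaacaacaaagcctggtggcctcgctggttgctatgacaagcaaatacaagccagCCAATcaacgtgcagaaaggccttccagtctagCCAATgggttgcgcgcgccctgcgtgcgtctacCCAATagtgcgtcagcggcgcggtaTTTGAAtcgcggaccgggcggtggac
Bub1, at chr2:127831830-127832029 on the minus strand, holds CCAAT letters in both orientations before a CHR after the start.
Bub1: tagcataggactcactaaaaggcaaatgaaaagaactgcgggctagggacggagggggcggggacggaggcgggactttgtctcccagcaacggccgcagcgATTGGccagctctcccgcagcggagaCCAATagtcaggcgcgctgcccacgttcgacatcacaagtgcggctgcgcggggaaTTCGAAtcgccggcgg
Kif2c, at chr4:117178743-117178942 on the minus strand, comes from a start inside the gene and holds a CHR upstream with no CCAAT.
Kif2c: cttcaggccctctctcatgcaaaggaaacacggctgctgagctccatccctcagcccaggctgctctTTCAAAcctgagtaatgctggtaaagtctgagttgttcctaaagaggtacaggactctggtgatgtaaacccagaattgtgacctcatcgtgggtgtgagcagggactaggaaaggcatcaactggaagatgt
Ube2c, at chr2:164769759-164769958 on the plus strand, holds CCAAT at 3 places and a CHR shortly before the start.
Ube2c: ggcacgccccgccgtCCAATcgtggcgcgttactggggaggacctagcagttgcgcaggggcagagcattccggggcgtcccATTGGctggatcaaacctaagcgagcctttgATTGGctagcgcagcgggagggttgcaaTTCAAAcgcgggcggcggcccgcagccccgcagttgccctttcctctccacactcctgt
Ncapg, at chr5:45669755-45669954 on the plus strand, holds a CHR shortly before the start and no CCAAT in the stretch shown.
Ncapg: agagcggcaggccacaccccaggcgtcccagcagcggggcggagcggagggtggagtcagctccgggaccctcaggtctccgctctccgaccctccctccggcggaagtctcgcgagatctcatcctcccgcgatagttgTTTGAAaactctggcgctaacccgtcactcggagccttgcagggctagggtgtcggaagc

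**Figure D2:**
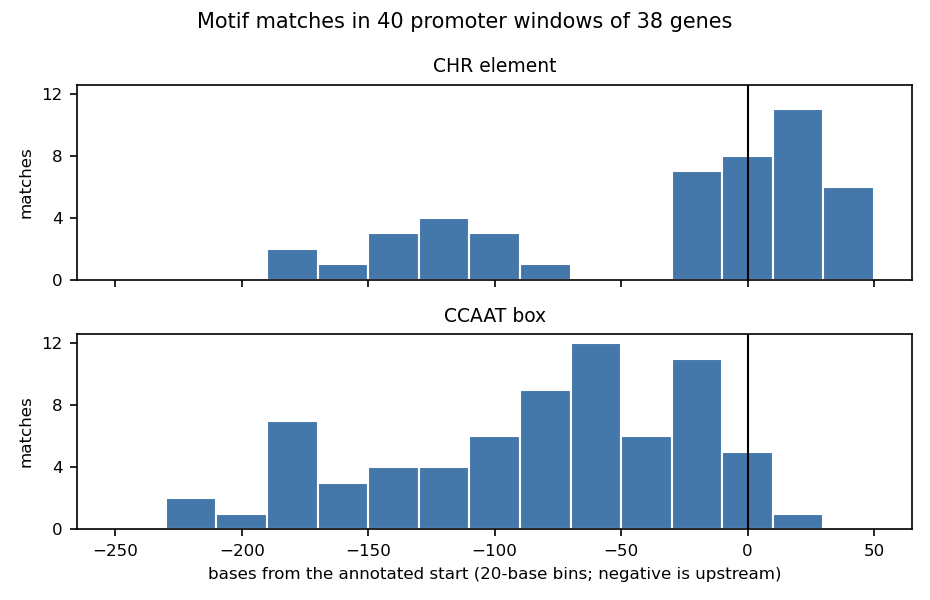
Histograms of where CHR letters (46 places) and CCAAT letters (71 places) lie in the 40 promoter windows, in bases from the annotated start, with matches per 20-base bin on the y axis. CHR matches gather around the start, and CCAAT matches lie mostly upstream of it.

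Cyclins and the kinases of mitotic entry showed the smallest median difference of the 5 groups. The median log2 fold change of the 12 genes was 0.16, and 1 had an unadjusted p under 0.05, against 2.74% of all genes. That gene was Ccnb1, which encodes cyclin B1, the partner of CDK1 that triggers mitosis. Ccnb1 (chromosome 13, 100778739 to 100786486) was at 5.07, 5.31 and 5.28 TPM in WT and 7.30, 8.18 and 6.83 TPM in MecomWT:R751W, each in the order of replicates 1, 2 and 3, as for every gene below. The groups did not overlap, with a log2 fold change of 0.44 (SE 0.16, adjusted p = 0.674 by limma). Ccnb1-ps, a transcribed pseudogene on chromosome 7, was at 7.648, 13.96 and 10.48 TPM in WT and 8.586, 7.772 and 8.999 TPM in MecomWT:R751W. The 2 rows together came to a WT mean of 15.9 ± 3.28 TPM and a MecomWT:R751W mean of 15.9 ± 0.0605 TPM (SD, n = 3 each). How reads shared by the gene and its copy were assigned is not given, so the Ccnb1 difference is uncertain. The pseudogene was looked up after the Ccnb1 values were seen.

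Ccnb2, the second B-type cyclin, had the narrower difference and the higher level. Ccnb2 was at 33.8, 35.8 and 39.4 TPM in WT and 42.1, 39.7 and 41.8 TPM in MecomWT:R751W. The lowest MecomWT:R751W value just exceeded the highest WT value, and the log2 fold change was 0.18 (SE 0.12). Ccna2, cyclin A2, which acts in S phase and G2, averaged 30.7 ± 4.55 and 34.6 ± 2.91 TPM, with overlapping groups. Exons of Exosc9 (mean 34.2 TPM) on the other strand cover 12.5% of its exonic bases, and the strand setting of the counting is not given.

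Cdk1, the kinase that both cyclins activate, was at 17.2, 16.7 and 21.7 TPM in WT and 21.5, 19.7 and 17.5 TPM in MecomWT:R751W. The groups overlapped widely (log2 fold change 0.08, SE 0.15). Plk1, the Polo kinase of centrosome maturation and mitotic entry, was at 12.5, 12.3 and 10.6 TPM in WT and 11.5, 11.4 and 13.9 TPM in MecomWT:R751W, again with overlap (0.05, SE 0.15). Aurka, the Aurora kinase of the spindle poles, had a log2 fold change of 0.07 (SE 0.17).

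The chromosomal passenger complex, which corrects faulty spindle attachments, had all 4 of its genes here. Birc5, which encodes survivin, was at 11.6, 11.4 and 13.6 TPM in WT and 16.9, 13.4 and 15.4 TPM in MecomWT:R751W. Only WT replicate 3 reached the MecomWT:R751W range, and the log2 fold change was 0.30 (SE 0.15, unadjusted p = 0.0684 by limma). Aurkb, the kinase of the complex, was at 14.1, 14.8 and 19.2 TPM in WT and 19.0, 17.1 and 19.4 TPM in MecomWT:R751W. Here too WT replicate 3 lay within the other group (0.20, SE 0.15). Incenp, the scaffold, and Cdca8, which encodes borealin, stood at 0.14 and 0.15 on the log2 fold change scale.

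Foxm1, the forkhead factor that activates many G2 and mitosis genes, was at 14.05, 13.8 and 16.9 TPM in WT and 16.4, 16.8 and 17.5 TPM in MecomWT:R751W. The groups overlapped through WT replicate 3, with a log2 fold change of 0.18 (SE 0.14). Cdca3, which promotes mitotic entry, stood at a log2 fold change of 0.14.

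Kinetochore and checkpoint genes had a median log2 fold change of 0.28 over 11 genes. Of these, 2 had an unadjusted p under 0.05, against 2.74% of all genes. Bub1, a checkpoint kinase of the kinetochore (chromosome 2, 127800197 to 127831859), was at 7.53, 10.7 and 11.0 TPM in WT and 14.3, 13.7 and 13.3 TPM in MecomWT:R751W. It was the 1 gene of the 11 whose groups did not overlap, against 4.5% of all genes. Its log2 fold change was 0.48 (SE 0.17, adjusted p = 0.657 by limma) and 0.32 without WT replicate 1. Knl1, the scaffold that recruits BUB1, was at 11.9, 12.1 and 15.1 TPM in WT and 18.4, 14.5 and 17.2 TPM in MecomWT:R751W. WT replicate 3 lay above MecomWT:R751W replicate 2, and the log2 fold change was 0.34 (SE 0.16).

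Cenpf, a large kinetochore protein that accumulates in G2, was at 28.8, 28.8 and 40.5 TPM in WT and 44.4, 37.7 and 39.2 TPM in MecomWT:R751W. WT replicate 3 exceeded 2 of the 3 MecomWT:R751W libraries (0.31, SE 0.15). Cenpa, the histone H3 variant that marks centromeres, was at 37.6, 31.4 and 30.4 TPM in WT and 37.3, 29.1 and 34.5 TPM in MecomWT:R751W. Its groups covered the same range, with the smallest log2 fold change of the 45 (0.02, SE 0.14).

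The checkpoint kinase Ttk stood at 0.35, the checkpoint protein Bub1b at 0.15 and Mad2l1, which encodes the CDC20 inhibitor MAD2, at 0.18 on the log2 fold change scale. Of the NDC80 complex, which grips microtubules, Spc25 stood at 0.32, Ndc80 at 0.15 and Nuf2 at 0.10. Cenpe, a kinetochore motor, stood at 0.28. None of these 7 genes separated the groups.

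Spindle motors and microtubule proteins had the largest median difference of the 5 groups. Their median log2 fold change was 0.35 over 11 genes, 7 had an unadjusted p under 0.05, against 2.74% of all genes, and 6 separated the groups, against 4.5%. Kif2c, a kinesin that takes microtubules apart at centromeres (chromosome 4, 117159633 to 117182624), was at 7.02, 7.86 and 9.59 TPM in WT and 12.4, 11.3 and 12.1 TPM in MecomWT:R751W. The groups lay apart, with a log2 fold change of 0.51 (SE 0.16, adjusted p = 0.583 by limma). Tpx2, which activates Aurora A on the spindle, was at 30.02, 33.1 and 38.6 TPM in WT and 46.1, 43.6 and 46.4 TPM in MecomWT:R751W. These groups lay apart too, with a log2 fold change of 0.42 (SE 0.13, adjusted p = 0.583).

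Hmmr, a hyaluronan receptor that also organises spindle poles, was at 21.4, 21.0 and 25.5 TPM in WT and 36.1, 27.8 and 29.9 TPM in MecomWT:R751W. All 3 MecomWT:R751W libraries exceeded WT (0.45, SE 0.15, adjusted p = 0.602 by limma). Kif11, the motor that pushes spindle poles apart, was at 25.4, 22.2 and 26.5 TPM in WT and 32.2, 28.1 and 28.8 TPM in MecomWT:R751W. The groups did not overlap, at a log2 fold change of 0.26 (SE 0.13).

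Ckap2, a spindle microtubule protein, stood at a log2 fold change of 0.43 and Kif20a, a kinesin of the central spindle, at 0.43, both with groups apart. Kif23, a motor of the central spindle, stood at 0.35, and Prc1, which bundles its microtubules, at 0.35. Kif4 (0.29), Nusap1 (0.21) and Kif20b (0.21) overlapped through WT replicate 3. Exons of Cdc23 on the other strand cover 29.3% of the exonic bases of Kif20a in GENCODE vM21, and those of Pdzd11 cover 15.1% of Kif4. Those of Rccd1 cover 11.1% of Prc1. The strand setting of the counting is not given, so reads of such pairs cannot be told apart.

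**Figure D3:**
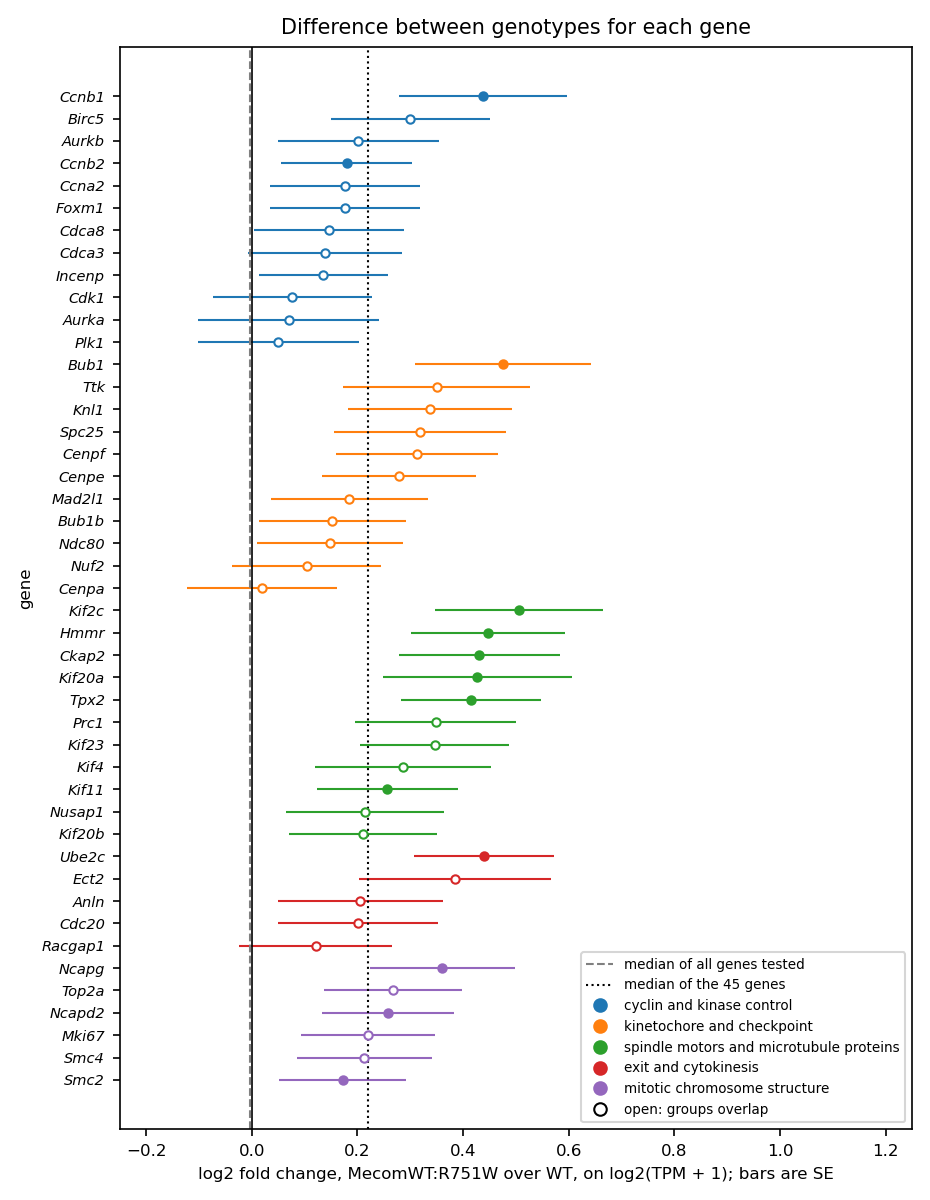
Log2 fold change of each of the 45 genes (MecomWT:R751W over WT, on log2(TPM + 1)), with bars for the SE and colours for the 5 role groups. Filled points mark the 13 genes whose groups do not overlap, 6 of them in the spindle group, and every point lies above 0 while the dashed median of all genes tested is at -0.0037.

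Exit and cytokinesis genes had a median log2 fold change of 0.21 over 5 genes. Of these, 1 had an unadjusted p under 0.05, against 2.74% of all genes. Ube2c, the ubiquitin-conjugating enzyme of the anaphase-promoting complex (chromosome 2, 164769929 to 164772902), was at 23.9, 26.7 and 24.5 TPM in WT and 37.8, 30.7 and 34.6 TPM in MecomWT:R751W. The lowest MecomWT:R751W library exceeded the highest WT library, with a log2 fold change of 0.44 (SE 0.13, unadjusted p = 0.0058 by limma). Exons of Tnnc2 on the other strand cover 22.8% of its exonic bases, and Tnnc2 itself was not among the genes with values.

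Ect2, which acts in the formation of the cleavage furrow, was at 10.5, 8.54 and 11.9 TPM in WT and 16.9, 11.0 and 13.7 TPM in MecomWT:R751W. The groups overlapped through WT replicate 3 and MecomWT:R751W replicate 2 (0.39, SE 0.18). Cdc20, the activator of the anaphase-promoting complex in mitosis, was at 15.5, 17.3 and 18.7 TPM in WT and 20.3, 16.9 and 22.7 TPM in MecomWT:R751W. MecomWT:R751W replicate 2 lay within the WT range (0.20, SE 0.15). Anln, a scaffold of the contractile ring, stood at 0.21, and Racgap1, which partners Kif23 in the central spindle, at 0.12.

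Genes of mitotic chromosome structure were the most abundant. Mki67, which encodes the proliferation antigen Ki-67, a coat of mitotic chromosomes, was at 165, 163 and 191 TPM in WT and 220, 181 and 204 TPM in MecomWT:R751W. The groups overlapped only through WT replicate 3 and MecomWT:R751W replicate 2, and the log2 fold change was 0.22 (SE 0.13, adjusted p = 0.945 by limma). Top2a, the topoisomerase that untangles sister chromatids, was at 120, 130 and 154 TPM in WT and 172, 150 and 163 TPM in MecomWT:R751W. Its pattern over the libraries was alike, with a log2 fold change of 0.27 (SE 0.13).

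Of the condensin genes, which compact chromosomes, Ncapg was at 19.1, 18.4 and 22.4 TPM in WT and 25.1, 24.7 and 27.8 TPM in MecomWT:R751W. The groups lay apart, with a log2 fold change of 0.36 (SE 0.14, adjusted p = 0.718 by limma). Exons of Lcorl on the other strand cover 13.4% of its exonic bases. Ncapd2 was at 43.6, 47.3 and 51.01 TPM in WT and 58.4, 52.6 and 59.2 TPM in MecomWT:R751W, also apart (0.26, SE 0.12). Scarna10, a small RNA at a mean of 1964 TPM, lies within exonic bases of Ncapd2 on the same strand, which makes the Ncapd2 level uncertain. Smc2 and Smc4, the core ATPases, stood at 0.17 and 0.21, with the groups apart for Smc2 alone of the pair.

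**Figure D4:**
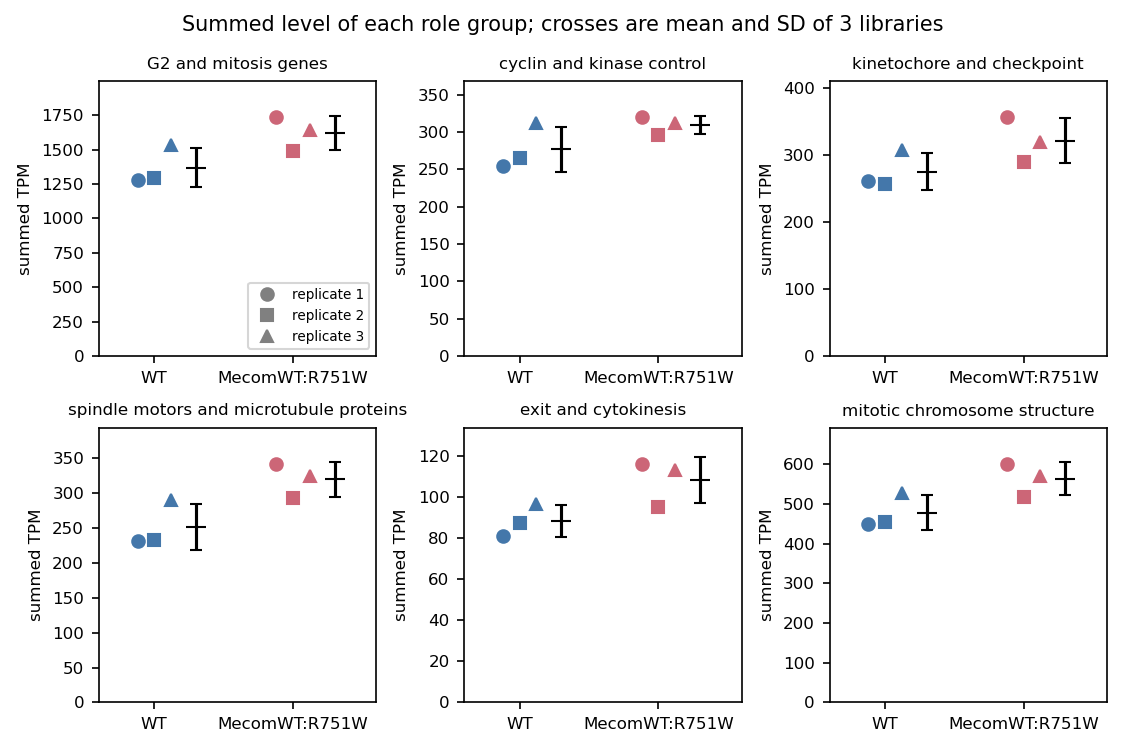
Summed TPM of all 45 genes and of each role group in every library, with WT in blue, MecomWT:R751W in red, a marker shape per replicate number, and the mean and SD of 3 libraries beside the points. In each panel WT replicate 3 is the highest WT library and MecomWT:R751W replicate 2 the lowest of its group, and the summed spindle group went from 251 ± 33.4 to 319 ± 25.2 TPM.

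Levels among the 45 genes spanned from 6.32 TPM for Kif20a to 187 TPM for Mki67 as a mean over all libraries, with a median of 27.0. The spread between WT replicates exceeded what counting of reads gives for 43 of the 45 genes, all but Ccnb1 and Ube2c. The median coefficient of variation was 13.1% in WT and 9.06% in MecomWT:R751W, while counting alone gives 4.37% at the median gene.

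Other genes of the same processes, 114 from a wider list, leaned the same way by less. Their median log2 fold change was 0.14, 100 of 114 lay above 0, 12 had an unadjusted p under 0.05, all higher (2.74% of all genes), and 0 passed the adjusted threshold. The groups lay apart in 20 of the 114, against 4.5% of all genes. After rescaling to the protein-coding total they lay apart in 34, against 7.53% of 12394 protein-coding genes. Cenpi, of the inner kinetochore, went from a WT mean of 6.04 ± 1.00 TPM to 8.95 ± 1.11 TPM (SD, n = 3 each). Dlgap5, a spindle assembly protein, was at 18.4 ± 1.94 and 23.9 ± 0.411 TPM, Ncaph, the condensin kleisin, at 17.0 ± 3.22 and 23.2 ± 2.76 TPM, and Ska3, of the outer kinetochore, at 8.60 ± 1.22 and 11.7 ± 0.648 TPM. By class, 23 of 24 further spindle genes lay above 0 with a median of 0.21, and 18 of 22 further exit genes with a median of 0.09. The latter include most subunits of the anaphase-promoting complex.

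Genes of neighbouring phases gave the context. S phase and DNA replication genes had a median log2 fold change of 0.14, with 40 of 43 above 0 and groups apart in 12 of 43, against 4.5% of all genes. Rrm2, a subunit of ribonucleotide reductase, stood at 0.49, Cdc6 at 0.40, and Cdt1 and Pola1 at 0.31 each. Genes of G1 and quiescence had a median of -0.01, with 10 of 22 above 0. Cdkn2d stood at -0.51, Cdkn1c at -0.42 and Cdkn1a at -0.62, all inhibitors of cyclin-dependent kinases. Btg1, an antiproliferative gene, stood at -0.37, and the groups overlapped for Cdkn1a and Btg1. The inhibitors did not move as a class, with Cdkn2c at 0.30 and Cdkn1b at 0.14, both with overlapping groups. None of these passed the adjusted threshold, and differences between the lists were not tested.

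Markers of other cells were read beside these values. Of 9 markers of multipotent and lymphoid-primed progenitors, which cycle more than long-term stem cells, 8 were analysed, 6 had a higher mean in MecomWT:R751W, and their sum was 103 to 127 TPM in WT and 117 to 141 TPM in MecomWT:R751W. Flt3 was at 11.7, 9.30 and 13.04 TPM in WT and 24.0, 20.4 and 24.1 TPM in MecomWT:R751W, without overlap. Of 10 T cell and NK cell markers, 5 were analysed and all 5 had a higher mean, with a sum of 9.05 to 10.1 TPM in WT and 19.2 to 21.6 TPM in MecomWT:R751W, while the CD3 genes were not analysed. Nkg7, of cytotoxic granules, was the highest of them. Of 12 erythroid markers, 11 were analysed and 9 had a higher mean, with sums of 326 to 406 and 324 to 397 TPM, mostly Car2. The groups lay apart, higher in MecomWT:R751W, for 5 low erythroid genes, where this held for 4.5% of all genes tested. Car1 and Rhd had as few as 7 implied reads in a library. Car1, Ermap, Rhd and Sptb averaged under 1 TPM in WT, so they reached the 1 TPM mean required for testing only through MecomWT:R751W. Means in WT and MecomWT:R751W were 1.81 ± 0.690 and 4.16 ± 1.23 TPM for Klf1, 0.829 ± 0.269 and 4.44 ± 3.92 TPM for Car1, and 0.773 ± 0.453 and 2.58 ± 0.693 TPM for Ermap (SD, n = 3 each). For Rhd they were 0.690 ± 0.0943 and 2.34 ± 0.676 TPM, and for Sptb 0.679 ± 0.128 and 1.54 ± 0.204 TPM. The mean log2(TPM + 1) over the 11 genes was 2.02 to 2.38 in WT and 2.56 to 2.89 in MecomWT:R751W, and none of the 5 genes passed the adjusted threshold. Hba-a1 was at 0 in 1 library, and no other marker analysed was at 0. Sums of 10 granulocyte and monocyte markers (5 analysed) were 54.8 to 63.9 and 52.9 to 64.1 TPM, and of 9 megakaryocyte markers (8 analysed) 138 to 161 and 126 to 182 TPM. The part of any of these cells in the mitotic gene values was not tested.

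Scaling moved how many of the 45 genes had an unadjusted p under 0.05. There were 18 with protein-coding rows only, where 3% of the 11394 protein-coding genes tested were called higher. Rescaling to the protein-coding total gave 25 (4.9% of 12394 protein-coding genes). Equal medians of the log2 values gave 23 (4.76% of all 16655 genes) and limma-voom on the implied reads 26 (4.86% of all 16655). None of the 45 passed the adjusted threshold under these 4 settings, and the smallest adjusted p was 0.0759, for Hmmr with limma-voom.

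**Figure D5:**
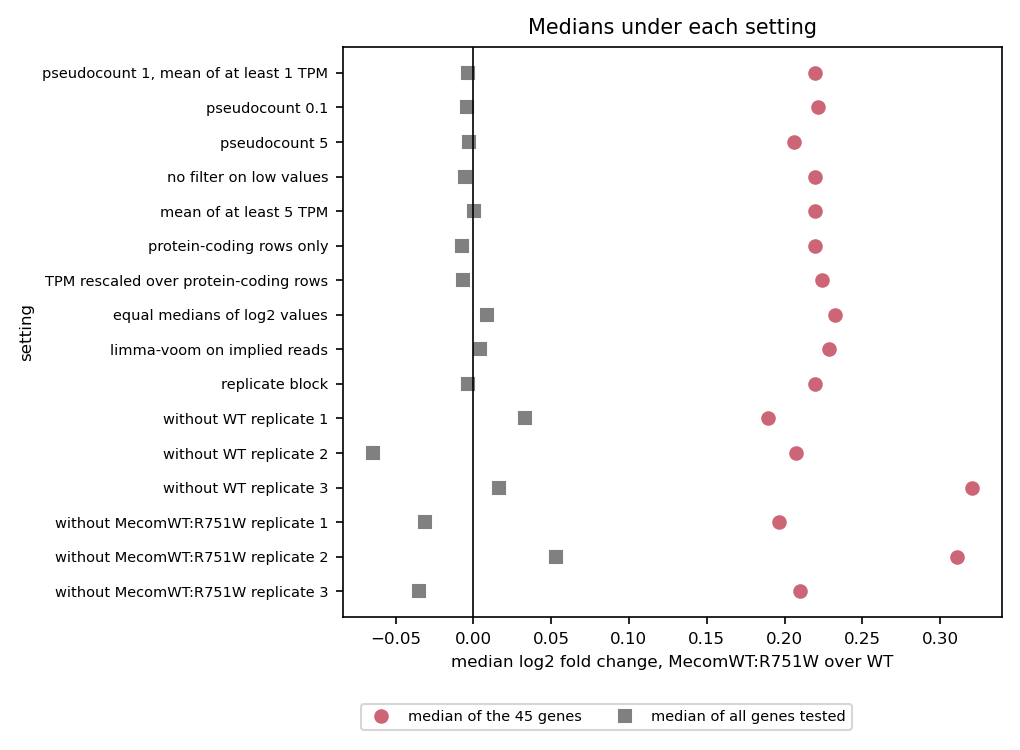
Median log2 fold change of the 45 genes (circles) and of all genes tested (squares) under each processing setting. The 45 genes keep a median between 0.19 and 0.32 under every setting shown, and the median of all genes stays between -0.065 and 0.053.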

How the data were processed

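RNA-seq libraries of SLAM-LSK cells (3 WT and 3 MecomWT:R751W) were read from 1 table of TPM, which the authors deposited with 1 column per library. Per the submitters' processing notes the build was mm10, and the authors used DESeq2, with no role stated. The aligner, the annotation, and how reads were counted and on which strand are not given in the sources here. Per the labels' protocols several library kits were in use, and which one made these libraries is not stated. All 18465 symbols matched RefSeq (GRCm38.p6), 12552 of them as protein-coding.

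Genotype was fitted alone with limma 3.58.1 (R 4.3.3, trended variance) on log2(TPM + 1). Tested genes had a mean of at least 1 TPM, which all 45 passed. P-values are two-sided and Benjamini-Hochberg adjusted over 16655 genes (threshold 0.05). TPM ratios within a gene implied whole reads for 100% of genes within 0.001 reads, and the procedure was tested on simulated data. Figures and counts used Python 3.11.15.

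The 45 genes and all other lists were chosen with earlier results of these data known, and a list is described by counts and medians only. The list's rule names 4 roles, and chromosome structure was added as the fifth. The 3 genes of smallest p per role and 11 fixed genes are given in every library. The 4 of smallest p from each other list are named, with Cdkn2c and Cdkn1b added as further inhibitors. Alternatives changed the pseudocount, the filter, the rows, the scaling, the unit, the replicate block and the libraries kept.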

Additional observations from a re-analysis of the deposited data

How the results depend on the processing

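Under 15 other settings, none of the 45 genes passed the adjusted threshold, and their median log2 fold change ran from 0.21 to 0.23 with another pseudocount, filter, set of rows, scaling or unit. Leaving out each library in turn gave a median from 0.19 (without WT replicate 1) to 0.32 (without WT replicate 3), and 42 to 45 genes above 0. Below 0 in such a setting were Plk1 (range -0.036 to 0.094), Aurka (-0.067 to 0.15) and Cenpa (-0.057 to 0.12). Without 1 library, 6 (WT replicate 2 left out) to 20 (MecomWT:R751W replicate 2) of the 45 had an unadjusted p under 0.05, and 12 with all 6 libraries. Over all genes the calls depended on the setting, with 0 higher and 0 lower as reported, 1 and 1 at a mean of at least 5 TPM, 40 and 92 over protein-coding rows alone, 8 and 9 after rescaling and 24 and 26 with limma-voom, and the cause was not tested. Leaving out 1 library gave 0 to 6 higher and 0 to 9 lower. Same-numbered libraries deviated together only weakly (r across genes 0.14, 0.0893 and 0.0833), although each library correlated best with its own number. A shift common to all genes of a library does not enter this r. Both replicate 2 libraries had the lowest protein-coding share of their group (25.9% in WT and 26.0% in MecomWT:R751W). The main fit took no pairs, and whether the numbers mark pairs was not settled. With the replicate block the median stayed at 0.22, 45 of 45 lay above 0, 0 passed, and 20 had an unadjusted p under 0.05, where 4.38% of all genes were called higher and 5.32% lower. Depth limits Ccnb1 and Kif20a most, with 88 and 138 implied reads in their shallowest library.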
